A study of Oscheius tipulae with 48 samples.

Results

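The genes described here are the neighbours of short runs of nearly undetected genes in the nematode Oscheius tipulae, an animal that discards some of its DNA as the embryo develops. There were 143 of them among 14558 gene IDs. They were chosen on 2 libraries in which almost every gene had some signal. A gene was low when it had under 1.6 RPKM in post-dauer young adult replicate 1 and under 1.08 RPKM in dauer replicate 1, and 173 genes were low. A run gene was a low gene with at least 3 low genes among the 10 nearest IDs, 5 on each side, and there were 79. A flanking gene is a gene that is not low and lies within 10 positions of a run gene in the order of IDs. RPKM is the number of reads scaled by the length of the gene and the size of the library. The values of these 2 libraries are used below as a description only.

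In programmed DNA elimination, the chromosomes of cells that will form the body are broken at set places in the early embryo, the pieces that are not kept are degraded, and the retained ends are healed with new telomeres. Germ cells keep the full genome. In Oscheius tipulae the discarded pieces lie at chromosome ends, so a retained gene beside a break comes to lie next to a new telomere in body cells. Genes were known here by ID alone, and neither chromosomes nor break sites were used. Whether a run gene was eliminated, and whether a flanking gene was retained, was not measured: the order of IDs stands in for position, and genes on the 2 sides of a run may belong to different chromosomes.

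All 48 libraries were of strain CEW1, and they fell into 23 groups. Embryos were taken at 2 cells (1 library), 2-4, 4-8, 8-16, 16-32 and 32-64 cells (3 libraries each), 64-128 cells (2 libraries), 100-150 cells and 150-200 cells (1 library each), and a mixed embryo library was made as well. Whole worms were L1 larvae (3 libraries) and, with 2 libraries each, L2, L3 and L4 larvae, young adults, mature adults, dauer larvae, mixed worms and the L3, L4, young adult and mature adult stages of post-dauer worms. Embryos were held at 25 °C in buffered medium. The arrested L1 larvae were fed at 20 °C to give the later stages, dauer larvae, the arrested resistant form, came from liquid culture, and post-dauer worms were grown from these. Adult males (2 libraries) carried him-1(sy527), an allele not listed for the other groups, and 200 were picked by hand for each library. Whole worms contain both body and germ cells, so a lower value from fewer cells of a type and one from less RNA per cell cannot be told apart. The labels call replicates biological and name no separate cultures, so p-values here reflect library-to-library spread that may in part be technical.

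Library sums ran from 371389 RPKM (dauer replicate 2) to 860569 RPKM (replicate 3 of 16-32 cells). In 5 libraries, genes that are silent elsewhere had a raised level: both dauer libraries and replicate 1 of the young adults, L4 and L3 larvae that had passed through dauer. The first of the dauer libraries and the post-dauer young adult library are the 2 that chose the genes. Young adult replicate 1 stood apart in another way, since 40 of the 79 run genes reached 1 RPKM there and their median was 1.18 RPKM, against 14 run genes and 0.26 RPKM in young adult replicate 2. That library is named beside each result it decides. Some run genes had the same group means, such as Oti_g12065 and Oti_g12072, both with 1.805 RPKM in young adults. Counts of run genes, here and below, may therefore count 1 signal more than once.

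The run genes fell into 7 blocks, where a block joins run genes at most 10 positions apart. Block 1 held 4 run genes between Oti_g00002 and Oti_g00005, at the start of the IDs, and block 7 held 22 run genes between Oti_g14517 and Oti_g14558, the last ID. Between them lay block 2 with 10 run genes (Oti_g02272 to Oti_g02281), block 3 with 7 (Oti_g04361 to Oti_g04367), block 4 with 12 (Oti_g06838 to Oti_g06852), block 5 with 5 (Oti_g09724 to Oti_g09729) and block 6 with 19 (Oti_g12058 to Oti_g12077). Of the 143 flanking genes, 60 had IDs before a block and 59 after one. The other 24 lay inside a block, between run genes, and 19 of these were in block 7. That block spanned 42 positions, so its run genes were the most interrupted of the 7 blocks.

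Of the 143 flanking genes, 127 were above both thresholds. A further 11 were above the threshold in the post-dauer young adult library only and 5 in the dauer library only. Just inside the first threshold lay Oti_g09727 with 1.60 RPKM and Oti_g04353 with 1.78 RPKM, and just outside it the run genes Oti_g04361 with 1.42 RPKM and Oti_g06849 with 1.41 RPKM. At the second threshold, Oti_g14523 with 1.38 RPKM and Oti_g14540 with 1.51 RPKM lay just inside, and the run genes Oti_g14525 with 1.03 RPKM and Oti_g14535 with 0.97 RPKM just outside.

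**Figure D1:**
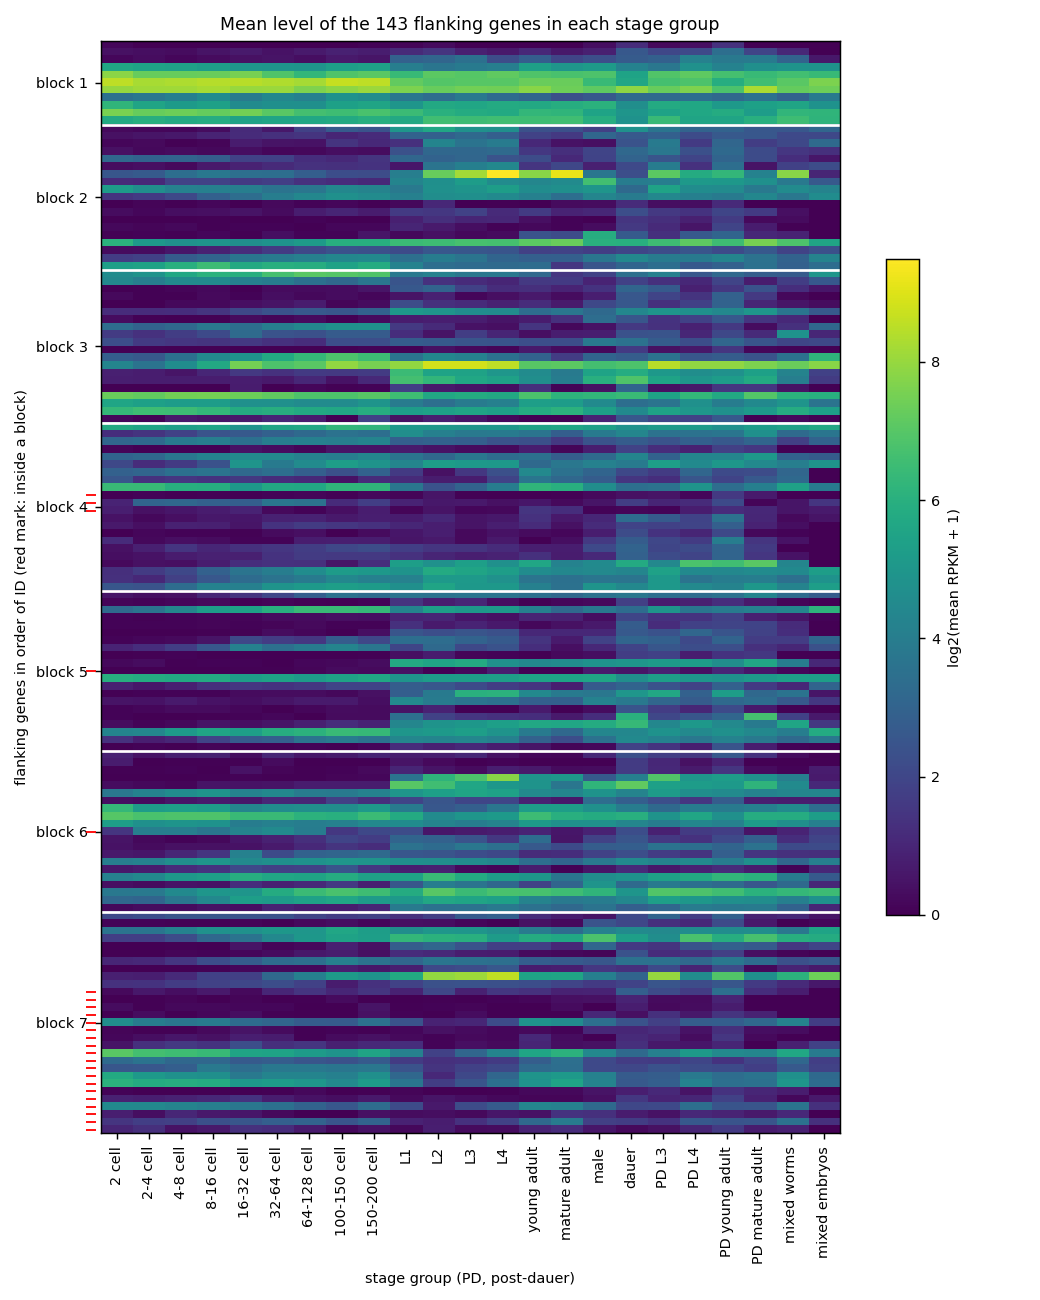
Mean level of each flanking gene (rows, in order of ID, white lines between blocks) in each of the 23 stage groups (columns), as log2 of the mean RPKM + 1, with red marks at the 24 genes inside a block. The 2 libraries that chose the genes are part of the dauer and post-dauer young adult means; bright rows in every column, such as those of block 1, lie beside rows near 0, and the genes inside block 7 are mostly dark.

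Flanking genes ranged from among the more abundant transcripts of the animal to transcripts near 0. The highest medians over the 46 libraries that the rule did not use belonged to Oti_g00011 (201 RPKM), Oti_g00010 (171 RPKM) and Oti_g04370 (159 RPKM). Oti_g00011 stayed between 121 and 408 RPKM in all 46 libraries, whereas Oti_g04370 spanned 2.17 to 512 RPKM. Oti_g00010 lay between 167 and 461 RPKM in the staged embryo libraries, and had 50.5 and 46.2 RPKM in dauer larvae and 76.3 and 90.5 RPKM in males. The 3 L1 libraries were far apart, with 227, 35.7 and 183 RPKM, and the 35.7 RPKM was the lowest value of the gene in the 46 libraries. Both block 1 genes lie 5 or 6 positions from a run gene.

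Genes directly next to a block were of every kind. Beside block 6, Oti_g12057, the last ID before the block, was present throughout, between 10.9 and 46.1 RPKM with a median of 20.6 RPKM, while Oti_g12078, the first after it, ranged from 0 to 17 RPKM with a median of 1.71 RPKM. Before block 4, Oti_g06837 ranged from 1.49 to 119 RPKM with a median of 39.5 RPKM, and after it Oti_g06853 ranged from 0 to 10.3 RPKM with a median of 0.53 RPKM. Before block 7, Oti_g14516 held 0.51 to 5.49 RPKM with a median of 2.60 RPKM, and no ID follows that block.

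Oti_g06837 was high in staged embryos and directly grown adults, and low in directly grown larvae from L2 on. At 2-4 cells its 3 libraries held 62.1, 64.9 and 119 RPKM, in L2 larvae 2.49 and 5.89 RPKM, in L4 larvae 14.5 and 15.7 RPKM, and in mature adults 73.5 and 49.9 RPKM. The L2 values lay below every embryo and adult value of the gene except the 2.93 RPKM of post-dauer young adult replicate 1, 1 of the libraries that chose the genes. In L1 larvae the libraries were far apart, with 30.5, 1.49 and 4.18 RPKM. Post-dauer worms differed, since the mean was 29.3 RPKM in post-dauer L4 larvae and 16.0 RPKM in post-dauer mature adults. Oti_g12078 had its highest value, 17 RPKM, in young adult replicate 1, against 1.26 RPKM in replicate 2.

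By median, flanking genes lay above run genes in all 48 libraries, an order that the rule favours. Against the 14242 other genes that are not low, their median was lower in all 27 libraries of larvae and adults, mixed worms included, and in 14 of the 21 embryo libraries. In L2 larvae the 2 library medians over flanking genes were 5.02 and 5.41 RPKM, against 7.60 and 8.29 RPKM for the other genes. In mature adults they were 2.02 and 3.17 RPKM, against 2.46 and 5.87 RPKM. In 2-4 cell embryos the mean of the library medians was 0.64 ± 0.31 RPKM for flanking genes and 0.77 ± 0.41 RPKM for the other genes (SD, n = 3). Library by library, the medians were 0.42, 0.50 and 1.00 RPKM against 0.57, 0.50 and 1.24 RPKM.

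Genes inside and outside blocks had different levels. Among the 119 flanking genes outside every block, the mean of the library medians in L2 was 9.20 ± 0.45 RPKM, against 7.94 ± 0.49 RPKM for the other genes that are not low (SD, n = 2). In mature adults the order was the opposite, with library medians of 2.28 and 4.44 RPKM for the genes outside blocks and 2.46 and 5.87 RPKM for the others. The 24 genes inside blocks had medians of 0.30 and 0.665 RPKM in L2 larvae, and their median was below that of the genes outside blocks in 41 of 48 libraries. All of these are descriptions, since no test was made of a level over the genes as a group.

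**Figure D2:**
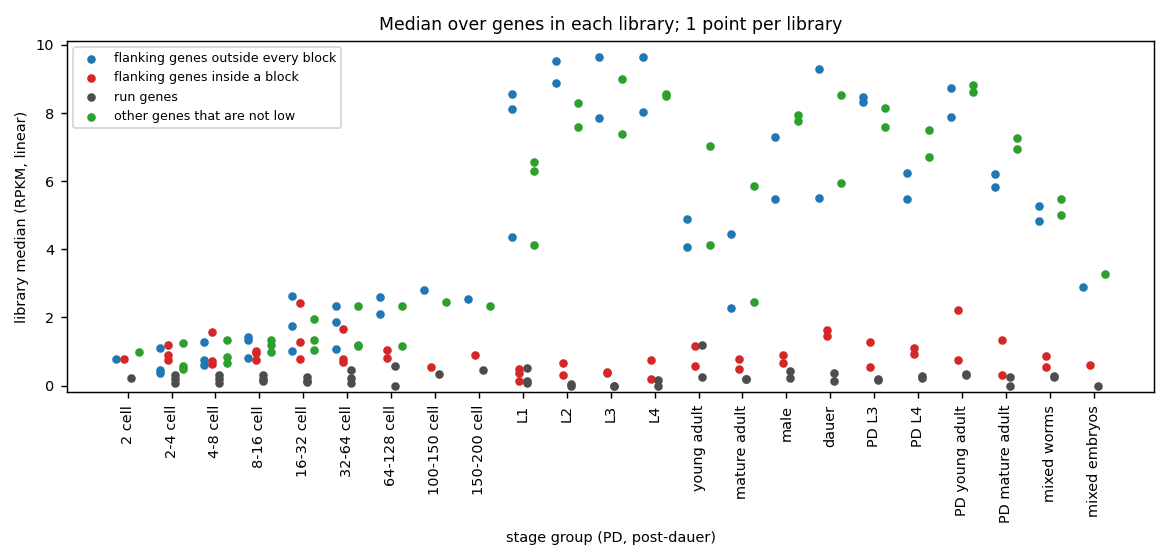
Median RPKM over the genes of 4 sets in each library (1 point per library, linear axis), by stage group; no error bars are drawn. In L2 larvae the flanking genes outside every block have library medians of 8.88 and 9.52 RPKM, above the 7.60 and 8.29 RPKM of the other genes, while the genes inside a block lie at 0.30 and 0.665 RPKM.

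Some flanking genes were on in every library and some in hardly any. In all 46 libraries that the rule did not use, 38 of 143 flanking genes (26.6%) reached 1 RPKM, against 32.9% of the other genes that are not low. At the other end, 16 (11.2%) reached 1 RPKM in fewer than 5 of the 46 libraries, against 6.49% of the others. Inside blocks 8 of 24 genes (33.3%) were of this rarely detected kind, and outside them 8 of 119 (6.72%).

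Distance from a run gene was read from the 119 genes outside blocks. The 60 genes at 1 to 5 positions had a median of 2.57 RPKM over their own medians, and the 59 genes at 6 to 10 positions a median of 8.66 RPKM, with 3.81 RPKM for the other genes that are not low. A median of at least 10 RPKM was reached by 21 of the nearer 60 (35.0%) and 26 of the farther 59 (44.1%), against 35.8% of the others. Position by position the medians did not form a steady gradient: they were 2.60 RPKM at 1 position, 4.94 RPKM at 4, 1.28 RPKM at 5, 22.8 RPKM at 8 and 6.88 RPKM at 10, with 11 to 13 genes at each. Neighbouring genes are not independent, and no test was made.

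The sides of the blocks differed widely in level. The 10 genes after block 1 had a median of 52.7 RPKM over their own medians, and 8 of them had a median of at least 10 RPKM. After block 3 the 10 genes had a median of 16.5 RPKM, before it 1.72 RPKM. The lowest side with more than 1 gene was that after block 2, where 9 genes had a median of 0.79 RPKM and 4 of them a median under 0.5 RPKM. Inside block 7 the 19 genes had a median of 0.61 RPKM.

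The libraries with a raised level of silent genes show the flanking and run genes side by side in samples that the rule did not use. These samples are no independent check: a silent flanking gene had to pass a threshold in 1 of the rule's 2 libraries, both with a raised level, a run gene had to be low in both, and dauer replicate 2 is the replicate of 1 of them. The choice of genes thus favours the order of flanking over run genes, and the counts are a description. Silent is used here for a median under 0.5 RPKM over the 43 libraries without a raised level, which held for 35 flanking genes, 59 run genes and 3549 other genes that are not low. In dauer replicate 2, 18 of the 35 silent flanking genes (51.4%) were above 1 RPKM, against 4 of 59 run genes (6.78%) and 75.0% of the others. In post-dauer L3 replicate 1 the counts were 24 of 35 (68.6%) and 2 of 59 (3.39%), with 91.3% of the others. In post-dauer L4 replicate 1 they were 15 of 35 (42.9%) and 0 of 59, with 75.9% of the others. In each of these 3 libraries the silent flanking genes lay between the run genes and the rest.

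Here too, genes inside and outside blocks had different counts. Outside the blocks, 18 of 25 silent flanking genes (72.0%) were above 1 RPKM in dauer replicate 2, 20 of 25 (80.0%) in post-dauer L3 replicate 1 and 14 of 25 (56.0%) in post-dauer L4 replicate 1. Inside the blocks the counts were 0, 4 and 1 of 10. In dauer replicate 1, a library of the rule, they were 25 of 25 outside and 4 of 10 inside. Most of the silent inside genes thus passed the rule through post-dauer young adult replicate 1 only. Their low values in dauer replicate 1 were part of the choice, so the contrast in its replicate is a description only. Without a raised level, in the other 43 libraries, 0 to 12 of the 35 silent flanking genes (0 to 34.3%) and 0 to 23 of the 59 run genes (0 to 39.0%) were above 1 RPKM, with 1.21 to 43% of the others. The highest count of run genes, 23, was that of young adult replicate 1, the library in which run genes stood out. Oti_g06853, the first gene after block 4, had a median of 0.53 RPKM, just above the limit for silent, and shows the same libraries in a single gene. It held 13.4 and 5.23 RPKM in dauer larvae, then 10.3 and 0.54 RPKM at the post-dauer L3 stage, 4.91 and 0.58 RPKM at post-dauer L4, and in direct L4 larvae 0.22 and 0.82 RPKM. The high values were those of the libraries with a raised level, and the first dauer value helped to choose it. Its other libraries lay at 2.68 RPKM or below, apart from 21.2 RPKM in post-dauer young adult replicate 1, the other library of the rule.

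**Figure D3:**
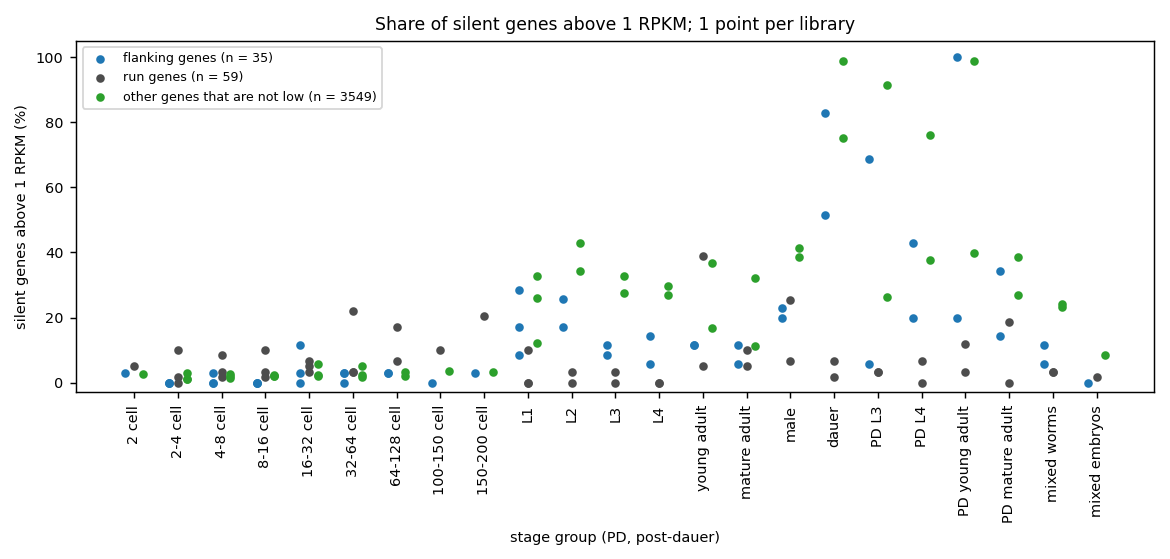
Percent of silent genes above 1 RPKM in each library (1 point per library) for flanking genes (n = 35), run genes (n = 59) and other genes that are not low (n = 3549). Dauer replicate 1 and post-dauer young adult replicate 1, where flanking genes reach 82.9% and 100%, chose the genes and show nothing; in dauer replicate 2, post-dauer L3 replicate 1 and post-dauer L4 replicate 1 flanking genes lie at 51.4%, 68.6% and 42.9%, between the other 2 sets.

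Embryos were compared between 2-4 and 32-64 cells, an early and a later point of the staged series. When elimination takes place relative to these stages was not measured here. The comparison asked whether neighbours of the runs changed as the embryo divided. Of 95 flanking genes tested, 22 were higher at 32-64 cells by limma (Benjamini-Hochberg adjusted p under 0.05 over all genes and a log2 change of at least 1 on the log2(RPKM + 1) scale), a scale that understates changes of low genes. Over all 9332 genes tested the share was 19.7%, which puts the flanking genes near the background. A single flanking gene was lower, against 4.88% of all genes tested. The replicate number was not part of this fit, and the fit with it as a block is given below. The median log2 change was 0.63 over the flanking genes tested and 0.33 over all genes tested, and the 48 flanking genes that failed the filter on low values are not part of either.

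The genes that rose lay beside 6 of the 7 blocks, and 21 of the 22 were outside a block. They were 2 to 6 genes a block, with log2 changes between 1.22 and 3.56. None lay beside block 1, where Oti_g00011 held 408, 161 and 260 RPKM at 2-4 cells and 348, 182 and 256 RPKM at 32-64 cells. Those 2 sets of values overlapped almost fully.

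Oti_g04370 and Oti_g04369, next to each other after block 3, rose the most of those named by the rule. For Oti_g04370 the 2-4 cell libraries held 8.35, 2.17 and 23.1 RPKM and the 32-64 cell libraries 87.9, 72.7 and 179 RPKM. All 3 later values lay above all 3 earlier ones, a log2 change of 3.56 ± 0.83 (SE; limma, adjusted p = 0.00646). Oti_g04369 went from 1.94, 3.64 and 10.3 RPKM to 20.4, 61.1 and 79.7 RPKM, again with no overlap, a log2 change of 3.15 ± 0.56 (SE; limma, adjusted p = 0.00194). After the embryo these neighbours parted. Oti_g04370 held 489 and 424 RPKM in L2 larvae, above every embryo value, while Oti_g04369 held 22.1 and 17.6 RPKM there, below both of its 64-128 cell values of 75.5 and 83.5 RPKM.

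Oti_g14533, inside block 7, fell. Its 3 libraries held 115, 73.9 and 112 RPKM at 2-4 cells and 57.4, 33.3 and 43.1 RPKM at 32-64 cells, with no overlap, a log2 change of -1.16 ± 0.32 (SE; limma, adjusted p = 0.0166). The call was lost when replicate 2 or replicate 3 of 32-64 cells or replicate 1 of 2-4 cells was left out and with only the 2 groups compared in the fit, where the adjusted p from limma lay between 0.0543 and 0.0785. The other gene called inside a block, Oti_g14536 of the same block, named here after its value was seen, rose from 4.00, 1.68 and 9.33 RPKM to 11.1, 10.5 and 16.8 RPKM, a log2 change of 1.39 ± 0.49 (SE; limma, adjusted p = 0.0467). Quantile normalization, which moved the median log2 change of all genes from 0.33 to -0.07, turned the split of 22 higher and 1 lower into 14 higher and 8 lower. Over all genes the split moved as well, from 1834 higher of 2289 called to 1134 of 2209. Without 32-64 cell replicate 3 the count called was 13 and without 2-4 cell replicate 1 it was 14, all of them higher, with 1129 and 1022 calls over all genes.

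Between L1 and L2, the first larval stage after feeding, 2 of 137 flanking genes tested were higher and none was lower by limma, against 2.19% and 0% of the 14233 genes tested. At an unadjusted p under 0.05 the number was 22 (16.1%), against 11.9% of all genes tested. Both genes lay before block 2. Oti_g02264 had 3.09, 0.82 and 0.50 RPKM in L1 and 19.2 and 17.5 RPKM in L2, a log2 change of 3.11 ± 0.64 (SE; limma, adjusted p = 0.0204). Oti_g02267 had 0.77, 0.24 and 0.41 RPKM in L1 and 12.6 and 10.7 RPKM in L2, a log2 change of 3.11 ± 0.54 (SE; limma, adjusted p = 0.00992). Neither gene overlapped between the stages. Both calls were lost when either L2 library was left out. Such a fit leaves 1 library in that group and is not read as a result about flanking genes. Replicate 1 of L1, young adults, post-dauer L3 and post-dauer L4 stood apart. With these libraries removed, the count was 8, against 5.49% of all genes.

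Both genes were higher in every L2, L3 and L4 library than in any library of L1 larvae or of directly grown adults. In L3 and L4 libraries Oti_g02264 had 9.61 to 14.5 RPKM and Oti_g02267 had 11.9 to 20.8 RPKM. In staged embryos Oti_g02264 stayed at or under 1.69 RPKM up to 200 cells and Oti_g02267 at or under 2.33 RPKM. The mixed embryo library held more, 8.75 RPKM of Oti_g02264 and 3.62 RPKM of Oti_g02267. Oti_g02267 fell from L4 to young adults, from 20.7 and 20.8 RPKM to 0 and 3.45 RPKM, a log2 change of -3.37 ± 0.59 (SE; limma, adjusted p = 0.0188). Oti_g02264 had 0.25 and 2.06 RPKM in young adults. Post-dauer young adult replicate 2 held more of both, 7.45 RPKM of Oti_g02264 and 13.0 RPKM of Oti_g02267.

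Young adults were compared with L4 larvae. Of the 137 flanking genes tested, 2 were lower and none was higher by limma, against 0.92% and 0.253% of all genes tested. At an unadjusted p under 0.05 the number was 37 (27.0%), against 20.7% of all genes. The 2 genes were Oti_g02267, described above, and Oti_g06833, before block 4, with 29.5 and 35.3 RPKM in L4 and 6.17 and 10.7 RPKM in young adults, a log2 change of -1.86 ± 0.40 (SE; limma, adjusted p = 0.0431). Its groups did not overlap. The count depended on single libraries, in fits that leave 1 library in a group. It fell without young adult replicate 1 and without either L4 library. It rose without young adult replicate 2, as did the share of all genes called. That last fit rests on young adult replicate 1, the library in which run genes stood out. With the 4 libraries that stood apart removed, that one included, it was 6, 3 in each direction, against 4.38% of all genes.

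Males were compared with mature adults, a comparison that addresses differences between the sexes. By limma, 6 of 137 flanking genes tested were higher in males and 2 were lower, against 9.45% and 0.78% of all genes tested. The higher genes lay beside 4 blocks, with log2 changes from 1.35 to 4.12. Genotype cannot be told apart from sex here, since only the males carried the him-1 allele.

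Oti_g02286, after block 2, had its highest values in males. The male libraries held 45.9 and 73.7 RPKM and the mature adult libraries 0.48 and 6.80 RPKM, with no overlap, a log2 change of 4.12 ± 0.97 (SE; limma, adjusted p = 0.0113). Its highest value in any other library was 8.85 RPKM, in young adult replicate 2, and embryos stayed at or under 0.65 RPKM. Oti_g12052, before block 6, had 89.9 and 54.7 RPKM in males and 11.8 and 12.3 RPKM in mature adults, a log2 change of 2.45 ± 0.72 (SE; limma, adjusted p = 0.0407). Other stages had more of it than males did, since L1 larvae held 27.2, 180 and 176 RPKM and dauer larvae 198 and 90.6 RPKM, while staged embryos stayed at or under 1.00 RPKM.

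Oti_g02268, before block 2, was the lower gene with the larger change. It held 9.30 and 15.2 RPKM in males and 336 and 811 RPKM in mature adults, a log2 change of -5.34 ± 1.40 (SE; limma, adjusted p = 0.0217). From L2 to L4 it had 123 and 188, then 210 and 359, then 720.4 and 709.7 RPKM, so that males lay below every directly grown larval library from L2 on. Young adults differed from each other, with 6.0 RPKM in replicate 1 and 438 RPKM in replicate 2. Oti_g14546, inside block 7, had 1.27 and 3.63 RPKM in males and 16.8 and 11.8 RPKM in mature adults, with no overlap, a log2 change of -2.22 ± 0.51 (SE; limma, adjusted p = 0.0103).

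The number of flanking genes called between males and mature adults changed with the libraries used. It fell without mature adult replicate 1 and without either male library. As these fits leave 1 library in a group, it is not read there as a result about flanking genes. With the same 4 libraries removed, none of which is a male or a mature adult, it was 25, of which 17 were higher, against 21.4% of all genes.

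**Figure D4:**
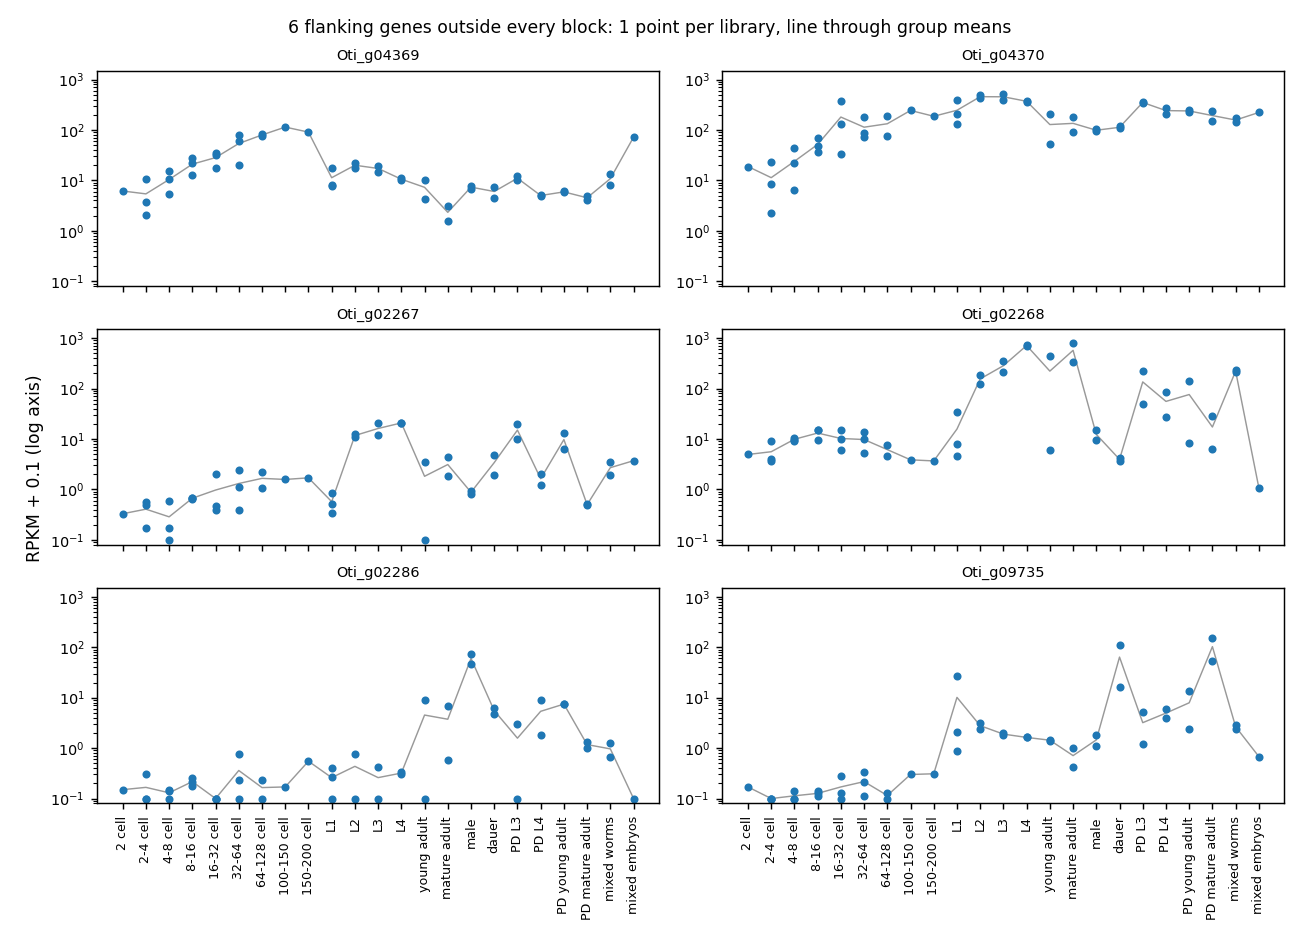
RPKM + 0.1 of 6 flanking genes outside every block in all libraries (1 point per library, log axis, line through group means), by stage group; dauer and post-dauer young adult groups each hold 1 library that chose the genes. Oti_g04369 and Oti_g04370 climb through the embryo, Oti_g02267 and Oti_g02268 are high from L2 to L4, Oti_g02286 has its highest points of 45.9 and 73.7 RPKM in males, and Oti_g09735 in dauer larvae and post-dauer mature adults.

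Dauer larvae and L3 larvae are the alternative forms of the third larval stage. Since dauer replicate 1 chose the genes, the comparison used dauer replicate 2 alone, assumed to vary like the other groups, and this library is among those with a raised level of silent genes. No flanking gene was called by limma in either direction among 137 tested, against 0.225% of all genes tested that were higher and 0.33% that were lower. At an unadjusted p under 0.05 the number was 32 (23.4%), near the 21.2% of all genes. The part of the raised level in this comparison was not tested. With the 4 libraries that stood apart removed and dauer replicate 2 kept, 29 flanking genes were called, 12 higher and 17 lower, against 21.3% of all genes. With only dauer replicate 2 and the L3 libraries in the fit the number was 11, against 14.1% of all genes, and with quantile normalization it was 6, against 4.97%.

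Passage through dauer was examined in mature adults, comparing post-dauer with directly grown worms. The mature adult libraries are the same as in the comparison with males, so the counts and values of these comparisons share them. By limma, 6 of 137 flanking genes tested were higher after dauer and 1 was lower, against 4.81% and 0.843% of all genes tested. The median log2 change was 0.49 over the flanking genes tested and 0.29 over all genes.

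Oti_g09735, after block 5, had the largest change of those named. Post-dauer mature adults held 152 and 53.0 RPKM and mature adults 0.33 and 0.89 RPKM, with no overlap, a log2 change of 5.84 ± 0.93 (SE; limma, adjusted p = 0.00276). Dauer larvae also had high values, 111 and 16.4 RPKM, the first from a library that chose the genes. The post-dauer stages between held 5.07 and 1.12 RPKM at L3, 3.91 and 5.79 RPKM at L4, and 13.3 and 2.31 RPKM in young adults, where the first value is from the other library of the rule. Among L1 larvae, 27.4 RPKM in replicate 2 stood against 0.78 and 1.96 RPKM in the other two, and no embryo library exceeded 0.58 RPKM.

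Oti_g12083, after block 6, had 76.0 and 54.3 RPKM in post-dauer mature adults and 6.27 and 17.3 RPKM in mature adults, with no overlap, a log2 change of 2.50 ± 0.43 (SE; limma, adjusted p = 0.00416). Among directly grown stages the mature adults were the low group, since L4 larvae held 31.6 and 44.8 RPKM and young adults 39.8 and 23.6 RPKM. The gene that was lower is Oti_g02268 again, with 6.37 and 28.1 RPKM in post-dauer mature adults against the 336 and 811 RPKM given above, a log2 change of -5.16 ± 1.40 (SE; limma, adjusted p = 0.0429). Post-dauer L4 larvae held 26.7 and 84.5 RPKM of it, below both direct L4 values. The 7 calls were lost when post-dauer mature adult replicate 1 or mature adult replicate 1 was left out. Fewer were made without post-dauer mature adult replicate 2. Such fits leave 1 library in a group and are not read as a result about flanking genes. Quantile normalization left 3 higher and 1 lower. With the 4 libraries that stood apart removed, 40 flanking genes were called, 27 of them higher, against 24.7% of all genes.

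The stage of the highest mean was read for each flanking gene over groups without the libraries of the rule, as a description with no test. Of the 20 genes inside blocks that reached 1 RPKM in a group mean, 10 were highest in an embryo group (50.0%), 5 in directly grown adults, 1 in dauer larvae and 4 in post-dauer groups (20.0%), and none in L1 to L4 larvae or males. Among the 118 such genes outside blocks, 33 were highest in an embryo group (28.0%), 4 in directly grown adults, 9 in males, 9 in L1 and 20 in L2 to L4, while 14 were highest in dauer larvae and 29 in post-dauer groups (24.6%). Of the other genes that are not low, 33.1% were highest in embryos, 3.93% in directly grown adults, 17.1% in L2 to L4 and 20.6% in post-dauer groups. Run genes had 20 of 51 in embryos, 27 in adults and none in larvae, but their low dauer and post-dauer levels are in part what the rule asked for. The adult peaks of run genes and of genes inside blocks include the high young adult replicate 1. The embryo groups of 2, 100-150 and 150-200 cells are 1 library each, all of replicate 3. Most embryo peaks of genes outside blocks fell in these single libraries.

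In block 7 several inside genes shared 1 profile across stages. The genes described here were chosen after their values were seen, so the likeness is a description. Oti_g14533 had 131 RPKM at 2 cells, 2.42 and 2.68 RPKM in L2, 6.62 and 8.76 RPKM in L3, 19.4 and 17.5 RPKM in L4, and mature adults held 76.9 and 58.4 RPKM. Among directly grown worms its mean was lowest in L2 and higher in each later group. Oti_g14539 had 51.0, 51.6 and 65.7 RPKM at 2-4 cells, 3.07 and 1.5 RPKM in L2, 10.1 and 10.8 RPKM in L4, and mature adults held 55.2 and 33.0 RPKM. In post-dauer mature adults it had 10.5 and 10.6 RPKM, below both directly grown libraries.

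Oti_g14537 had 28.2, 27.6 and 44.3 RPKM at 2-4 cells, 1.52 and 0.77 RPKM in L2 and 38.2 and 28.7 RPKM in mature adults. Oti_g14526 had its highest group mean in young adults, with 37.7 RPKM in replicate 1 and 17.2 RPKM in replicate 2. That mean rests on replicate 1, the library in which run genes stood out. The gene had 24.0 RPKM at 2 cells, 30.8 and 14.7 RPKM in mature adults and 0.86 and 0.88 RPKM in L2. Oti_g14542 had 21.8 RPKM at 2 cells, 1.12 and 0 RPKM in L2 and 18.6 and 15.4 RPKM in mature adults. In all of these the L2 libraries lay below every staged embryo library and below every library of directly grown adults. L1 replicate 1 held far more of each than L1 replicates 2 and 3, with 44.4 against 2.19 and 4.20 RPKM for Oti_g14533 and 31.1 against 1.61 and 3.08 RPKM for Oti_g14539. Oti_g14526, Oti_g14537 and Oti_g14539 were above the threshold of the rule in dauer replicate 1 only, so the low post-dauer young adult replicate 1 values of these genes were part of the choice.

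**Figure D5:**
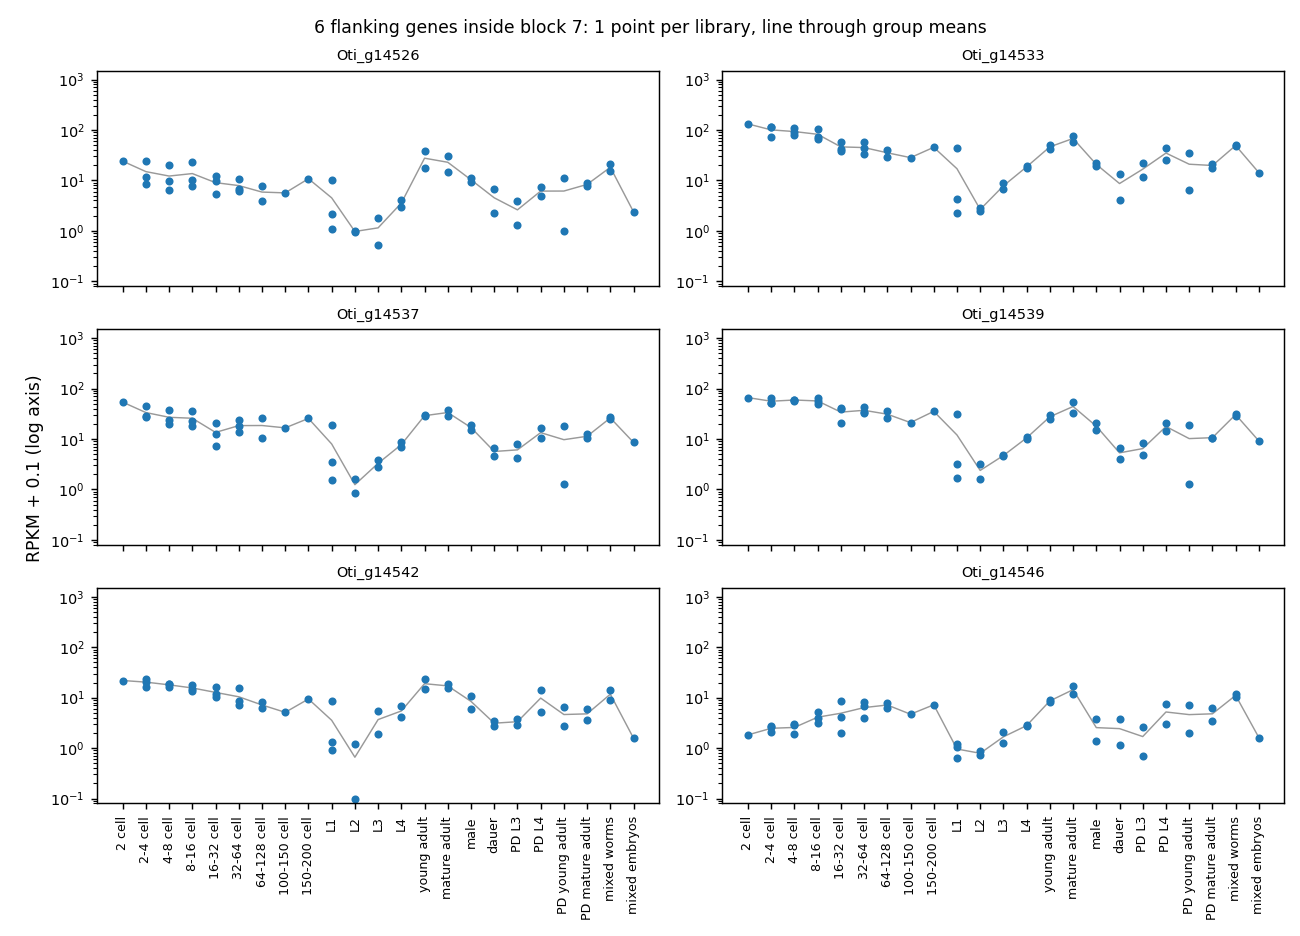
RPKM + 0.1 of 6 flanking genes inside block 7 in all libraries (1 point per library, log axis, line through group means), by stage group, chosen after their values were seen. Each has its lowest group mean among directly grown stages in L2, and mature adults return to 58.4 to 76.9 RPKM for Oti_g14533 and 11.8 to 16.8 RPKM for Oti_g14546.

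High levels in embryos followed by near absence in larvae were counted in all genes, with limits of 10 RPKM in an embryo group mean and 2 RPKM in the L2, L3 and L4 means that were set after values had been seen. Of 60 flanking genes that reached the first limit, 4 were under the second (6.67%), against 3.48% of the 5839 other genes that are not low. Among run genes it was 11 of 11, although low larval levels may accompany the low dauer and post-dauer levels that the rule asked for. The 4 flanking genes are Oti_g04352 and Oti_g04358 before block 3, Oti_g06845 inside block 4 and Oti_g12062 inside block 6. Oti_g04352 had 9.53, 6.43 and 30.6 RPKM at 2-4 cells and 22.1, 23.3 and 22.0 RPKM at 8-16 cells, and 0.82 to 1.56 RPKM from L2 to L4. The levels of L2 to L4 lay below every embryo library of that gene.

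Neighbouring flanking genes were also compared for likeness across libraries. In each set, only pairs in which both genes had a median of at least 1 RPKM over the 46 libraries were used. Over these libraries, 55 such adjacent pairs outside blocks had a median Pearson r of 0.41, with 5 pairs (9.09%) at 0.8 or more. The level of 0.8 was chosen after values were seen. For 7338 adjacent pairs of other genes the median was 0.32 and 14.4% reached 0.8. These correlations share libraries and stages and describe the genes only. The closest pair was Oti_g04371 and Oti_g04372 after block 3 (r = 0.98), the next IDs after the pair that rose in embryos. Embryos held at most 2.65 RPKM of Oti_g04371 and 2.16 RPKM of Oti_g04372, whereas L1 libraries held 23.8, 99.0 and 138 RPKM and 19.5, 103 and 173 RPKM. So 4 genes in a row after block 3 held at least 17.6 RPKM in both L2 libraries, and among these 4 Oti_g04369 alone had its highest mean in an embryo group. Another 3 genes in a row, Oti_g06860, Oti_g06861 and Oti_g06862 after block 4, rose between 2-4 and 32-64 cells, and each was among the 22 called. Over all 46 libraries, r between these neighbours was 0.95 and 0.90.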

How the data were processed

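The authors deposited RPKM values for 14558 gene IDs and 48 libraries in 1 table; that the unit is RPKM was taken from the values. RNA was freed of ribosomal RNA before library preparation, per the labels' protocols. The submitters' processing notes name HTSeq 2.0.2, STAR 2.7.10, Bowtie2 2.4.2 and StringTie 2.2.0 without saying what each did (genome build: not given in the sources used here). IDs are not paired with names in the file. Reads of near-identical or overlapping genes cannot be told apart. L2, L3 and L4 columns carry other replicate digits than the labels, so their digits only name the libraries.

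limma 3.58.1 (R 4.3.3; trend and robust options) was run on log2(RPKM + 1), with 1 fit for 17 embryo libraries of 6 groups and another for 23 libraries of 12 worm groups, without the 2 libraries that chose the genes. A gene entered a fit with 1 RPKM or more in 2 or more of its libraries: 9332 in embryos, of which 95 were flanking genes, and 14233 in worms, of which 137. Where 1 library is left in a group, its spread is taken to be that of other groups. Simulated data served to test the functions. The values give no read counts. Steps left by single reads gave a relative depth for 17 of 46 libraries, from 0.404 to 1.23 where 2-4 cell replicate 2 is 1, to within a small whole factor, with a criterion set after the values were seen; the depth of the other libraries was not resolved.

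Embryo replicate numbers were taken from the library descriptions, and the titles give other numbers for some stages. The main embryo fit did not use them, and a fit with the number as a block was an alternative. Between 2-4 and 32-64 cells, libraries of 1 number deviated from their stage means together across genes (r from 0.491 to 0.724, 3 pairs). For replicate 1 of 64-128 cells, also in the fit, r with the other stages ran from 0.0838 to 0.310.

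The flanking genes and all settings were chosen with earlier results of these data known. The genes named are, per comparison, called genes without overlap of the groups and with a higher mean of at least 10 RPKM, the 2 of largest change in each direction; the 3 of highest median; those next to each threshold; and those next to the 3 blocks with most run genes. Exceptions are said to be so where they appear. Alternatives were flanks of 5 positions, quantile normalization, a pseudocount of 0.1, no filter, only the 2 groups compared, the 2 rule libraries kept, a replicate block, and each library left out in turn. A fit lacking 16-32 cell replicate 3, or lacking replicate 1 of L1, young adults, post-dauer L3 and post-dauer L4, was added after seeing the data.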

Additional observations from a re-analysis of the deposited data

How the results depend on the processing

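Counts of flanking genes called moved in most comparisons, and the cause was not tested unless the change itself removed samples or genes. With flanks of 5 positions, a smaller set, the counts were 8 of 56 tested in embryos against 23 of 95, and, of 79 tested, 1 for L2 against L1, 5 for males and 2 for post-dauer mature adults, beside 24.5%, 2.19%, 10.2% and 5.66% of all genes. Quantile normalization gave 1 for L2 against L1, 1 for young adults, 6 for dauer replicate 2 and 4 for post-dauer mature adults, beside 1.66%, 0.948%, 4.97% and 2.89% of all genes. A pseudocount of 0.1 gave 0, 0 and 2 for L2, young adults and males, beside 0.288%, 0.0492% and 4.62% of all genes. With only the 2 groups compared the counts were 1 for L2, 0 for young adults, 15 for males, 11 for dauer replicate 2 and 11 for post-dauer mature adults, beside 1.08%, 0%, 15.5%, 14.1% and 10.4% of all genes. Keeping the 2 rule libraries gave 2 for dauer replicate 2 and 4 for post-dauer mature adults, beside 2.99% and 4.73% of all genes. With the libraries that stood apart removed, an alternative chosen after seeing the data, the counts were 8, 6, 25, 29 and 40 from L2 to post-dauer mature adults, beside 5.49%, 4.38%, 21.4%, 21.3% and 24.7% of all genes. Leaving out each library gave 13 to 31 in embryos, 0 to 2 for L2, 0 to 20 for young adults, 0 to 9 for males, 0 for dauer replicate 2 and 0 to 7 for post-dauer mature adults. The embryo fits that gave 13 and 31 called 12.5% and 29.9% of all genes. For L2, young adults and males, the share of all genes fell in the fits that gave 0. It rose in the fit that gave 20. Most of these worm fits leave 1 library in a group and are not read as a result about flanking genes.

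With the replicate number as a block, 34 of 95 flanking genes were called in embryos, 32 higher and 2 lower, against 23 without it, and the share of all genes called went from 24.5% to 35.0%, so the flanking genes lay near the background in both fits. The block gave 3 calls for males and 4 for post-dauer mature adults, beside 6.46% and 1.42% of all genes, groups that share 2 numbers with the mature adults and whose same-numbered libraries correlated at -0.02 and -0.08, so these share only a number. Of 155 recomputed values for 14 named results, 101 kept the call, 54 kept the direction without it and 0 reversed. Oti_g04370 and Oti_g04369 kept theirs in 12 of 12 alternatives. At the other end, Oti_g06833 kept its call in 3 of 10, and Oti_g12052 and Oti_g02264 kept theirs in 4 of 11 each. The fall of Oti_g02267 from L4 to young adults kept its call in 5 of 10.

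Above 0.5 RPKM in place of 1, the share of silent flanking genes was 74.3% in dauer replicate 2 and 80.0% in post-dauer L4 replicate 1, and with flanks of 5 positions it was 30.4% in dauer replicate 2. The mean of library medians with flanks of 5 positions was 1.87 RPKM in L1, 1.99 RPKM in L2, 2.17 RPKM in young adults and 1.63 RPKM in mature adults, against 4.23, 5.21, 3.71 and 2.60 RPKM. Flanks of 5 positions, here and above, drop only genes outside blocks, so genes inside blocks weigh more. In dauer replicate 2, 0 of 10 silent inside genes were above 1 RPKM. These values therefore do not show distance alone. Outside blocks alone it was 7.02, 9.20 and 4.49 RPKM in L1, L2 and young adults. The small number of libraries per group limits every comparison, and differences between low values lie near what single reads leave.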

Other observations

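Oti_g06845 and Oti_g12062, flanking genes inside blocks 4 and 6 that were singled out after their values were seen, had embryo values that went with the replicate number. Oti_g12062 held 20.3, 25.3 and 1.94 RPKM in replicates 1, 2 and 3 at 2-4 cells, 19.6, 24.4 and 2.24 RPKM at 4-8 cells and 39.3, 24.1 and 3.25 RPKM at 32-64 cells. Oti_g06845 held 6.89, 13.8 and 2.07 RPKM at 2-4 cells and 24.1, 10.3 and 2.04 RPKM at 32-64 cells. The replicate 3 libraries were the low ones at each of these stages. The other way round, Oti_g04358 before block 3 held 1.42, 1.49 and 17.7 RPKM at 2-4 cells and 3.19, 6.61 and 35.7 RPKM at 32-64 cells, with replicate 3 high. The single libraries of 100-150 and 150-200 cells, both of replicate 3, held 1.87 and 3.16 RPKM of Oti_g12062 and 26.1 and 27.0 RPKM of Oti_g04358. The single 2 cell library, also of replicate 3, held 1.77 and 9.53 RPKM of these genes. Stage and replicate number cannot be told apart in these 3 libraries. What the numbers share was not tested.

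Mixed embryos and mixed worms entered no comparison. In mixed embryos Oti_g04369 held 71.7 RPKM and Oti_g04370 held 222 RPKM, and the median over flanking genes was 1.88 RPKM, against 3.27 RPKM over the other genes that are not low. Mixed worms held 214 and 229 RPKM of Oti_g02268 and 50.7 and 47.3 RPKM of Oti_g14533.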
